A study of Mus musculus with 6 samples.

Results

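The Hox genes of the 4 mouse clusters were taken as every probe set whose annotated symbol was Hoxa, Hoxb, Hoxc or Hoxd followed by a paralog number from 1 to 13 and nothing else. The rule found 48 probe sets for 33 genes, of 45101 probe sets on the array and 18194 genes named by a probe set with a single symbol. RNA of mouse hair bulbs taken at postnatal day 9 was measured on 6 one-colour arrays. The emN1 bulbs (2 arrays) came from an area where the deletion took place in the embryo and had no functional Notch1. The anN1 bulbs (2 arrays) came from an area where it took place in anagen, the growth phase of the follicle, and still had functional Notch1, and wild-type bulbs (2 arrays) carried no stated deletion. The arrays were run in 2 sets, the first with 1 emN1 and 1 anN1 array and the second with the other 4. The study took the anN1 and wild-type arrays together as its controls. The strain, the allele, what drives the deletion, the number of mice and the body site of each area of skin are not stated in the labels, so body site and group cannot be told apart. Whether an array's RNA came from a single animal is also not stated, so that the p-values reflect only how far these samples spread.

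Hox genes encode homeodomain transcription factors and lie side by side in the clusters HoxA, HoxB, HoxC and HoxD. Genes with low paralog numbers are expressed towards the head end of the embryo and those with high numbers towards the tail and the tips of the limbs, so that the set of Hox genes a cell expresses marks its place along the body. Adult skin fibroblasts keep such a pattern according to where the skin lies, and Hoxc13 has an added role in the hair follicle, where hair shaft keratins depend on it.

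The results turn on Hoxd8 and Hoxd9, neighbours in the HoxD cluster, and the 250 bases before the annotated start of each are shown because these genes moved together. The Hoxd8 gene lies at chr2:74704615-74707933 and Hoxd9 at chr2:74697763-74700208. The windows are from RefSeq on GRCm38.p6, plus strand, at chr2:74704365-74704614 for Hoxd8 and chr2:74697513-74697762 for Hoxd9. Capitals mark the homeodomain core TAAT, read on both strands.
Hoxd8: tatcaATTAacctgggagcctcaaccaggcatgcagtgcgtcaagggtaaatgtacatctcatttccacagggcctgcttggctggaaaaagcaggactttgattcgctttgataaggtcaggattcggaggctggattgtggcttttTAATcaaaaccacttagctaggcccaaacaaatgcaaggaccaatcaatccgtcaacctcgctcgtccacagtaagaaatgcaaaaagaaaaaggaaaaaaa
Hoxd9: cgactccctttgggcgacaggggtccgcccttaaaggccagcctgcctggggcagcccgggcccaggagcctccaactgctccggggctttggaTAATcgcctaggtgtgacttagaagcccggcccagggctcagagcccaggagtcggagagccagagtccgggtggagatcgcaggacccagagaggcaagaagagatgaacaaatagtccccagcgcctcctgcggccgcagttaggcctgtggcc
The core occurred 2 times in the first window and 1 time in the second, and 54.9% of 32851 promoter windows of that length hold it at least once. The RBPJ core TGGGAA, the letters that the DNA-binding partner of Notch recognises (both strands; in 21.6% of windows), and the Hox and Pbx composite TGATNNAT (both strands; in 7.68%) were in neither window. The composite can share bases with TAAT. These matches describe letters and name no bound site. Of the 33 genes, 19 had a window in the table.

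Notch1, the deleted gene, was dimmest in emN1. Of its 2 probe sets the brighter read 6498 and 6292 units for emN1, 15077 and 12527 for anN1, and 23750 and 34070 for wild-type. Whether this probe set lies in the deleted part is not stated in the labels. The tissue markers of the bulb were present: the inner root sheath list (6 of 6 genes measured) summed to between 391120 and 486720 signal units over the 6 arrays, and the hair matrix and shaft list (6 of 8) to between 101982 and 176895. Signals are MAS5 values on a linear scale, and 112 units, the 95th percentile of bacterial control probe sets with no target present, was used as the background limit. Between 64.6% and 68.1% of all probe sets lay above it on each array.

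Most Hox probe sets above background on every array belonged to genes of middle paralog number. Of the 48 probe sets, 20 (16 genes) exceeded the background limit on all 6 arrays, 21 on some arrays and 7 on none. Paralogs 4 to 8, which had 20 of the 48 probe sets, supplied 12 of those above the limit on all arrays, from 9 of 12 genes. Among paralogs 1 to 3 it was 5 of 11 probe sets, from 4 of 7 genes. Among paralogs 9 to 13, 3 of 17 probe sets, for Hoxa9, Hoxc9 and Hoxc13, were above the limit on every array. By cluster, the numbers above the limit on all arrays were 5 of 16 probe sets in HoxA, 7 of 11 in HoxB, 6 of 11 in HoxC and 2 of 10 in HoxD. Brightness differs between probes for technical reasons, so a brighter probe set is not read as a more highly expressed gene. Order of brightness served only to choose which probe sets to test, to name or to stand for a gene.

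**Figure D1:**
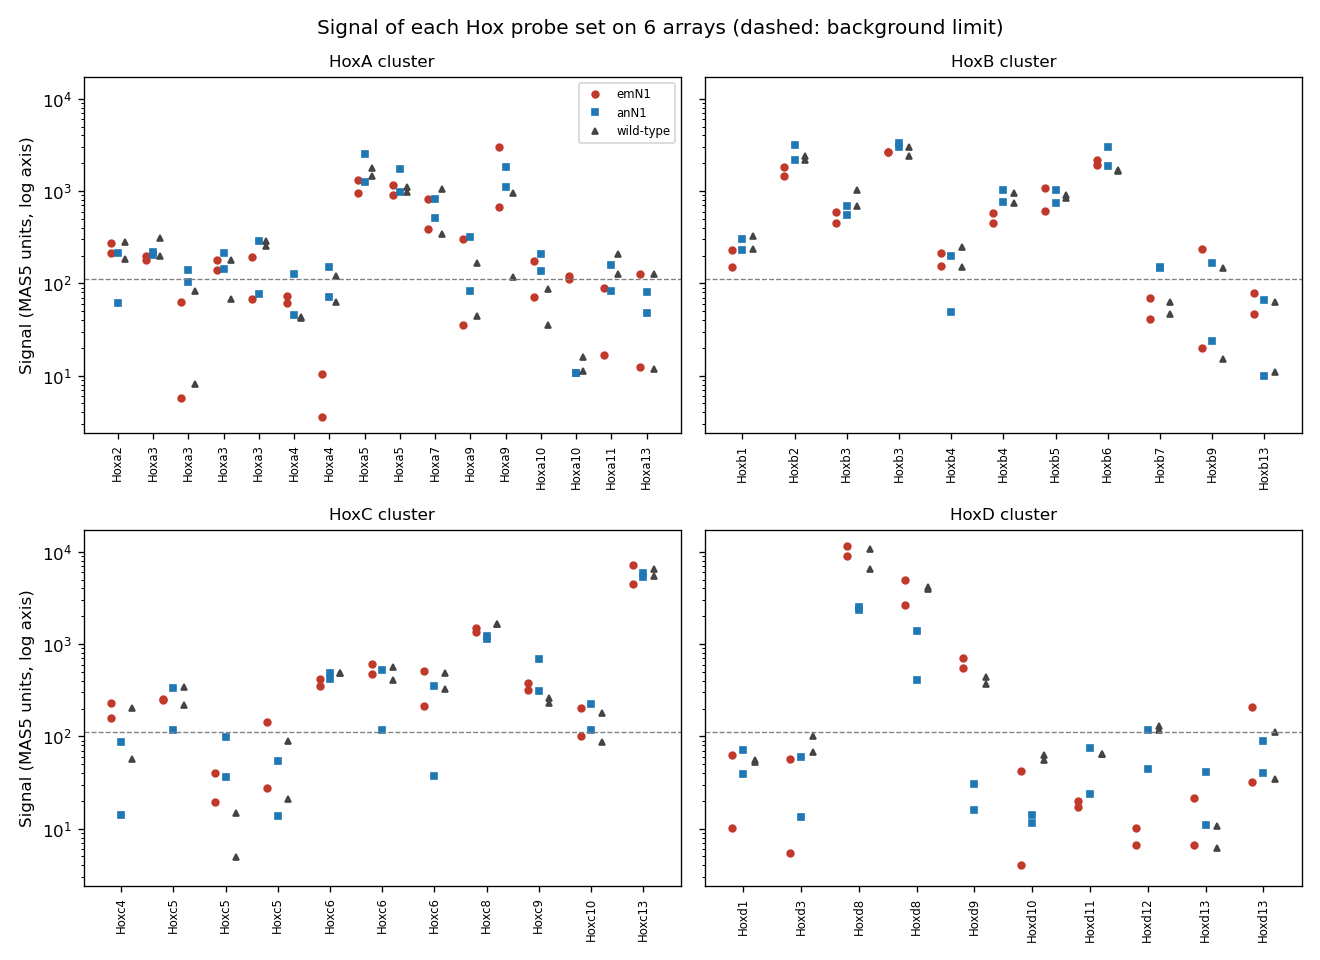
Signal of the 48 Hox probe sets (log axis, MAS5 units) by cluster and paralog number, with each point an array and the dashed line the background limit of 112. In HoxD, the 2 anN1 points of Hoxd8 and Hoxd9 lie under all 4 points of the other groups, and the HoxD probe sets with other numbers lie mostly under the limit.

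Hoxd8 and Hoxd9 were lower in anN1 bulbs than in both emN1 and wild-type bulbs, and were the members that passed a test in any comparison. Hoxd9, a posterior-type HoxD factor of trunk and limb, gave 548 and 712 units in emN1, 30.8 and 15.9 in anN1, and 365 and 442 in wild-type. Both anN1 signals lay under the background limit, while all other signals were above it. Hoxd8, a factor of trunk patterning, had 2 probe sets, of which the first gave 11427 and 8995 in emN1, 2347 and 2549 in anN1, and 6439 and 10773 in wild-type bulbs. The second (an "_s_at" probe set, a suffix that marks probes shared by several transcripts) gave 2638 and 4901 in emN1, 407 and 1377 in anN1, and 3908 and 4115 in wild-type. For all 3 probe sets the anN1 signals did not overlap those of the other groups, and the emN1 and wild-type signals overlapped for Hoxd8. In bulk RNA, fewer cells of a type and less RNA per cell cannot be told apart.

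Of the 27 Hox probe sets bright enough to be tested, 3 were called higher in emN1 than in anN1, none was called lower and 24 did not pass. Among all 27022 tested probe sets 1.35% were called higher and 2.02% in either direction. At an unadjusted p under 0.05 there were 6 Hox probe sets, against 13.4% of all. The log2 difference was 2.04 (SE 0.24; 95% interval 1.47 to 2.62) for the first Hoxd8 probe set, 2.23 (SE 0.22; 1.71 to 2.75) for the second and 3.99 (SE 0.45; 2.92 to 5.05) for Hoxd9. The limma Benjamini-Hochberg adjusted p-values were 0.0125, 0.00718 and 0.0108, in the order given. Within the first array set the emN1 minus anN1 log2 differences were 2.27, 2.64 and 3.54, and within the second 1.81, 1.82 and 4.44. Because Hoxd9 was not above background in anN1, its fitted size is no firm value. With signals raised to the background limit the fitted difference was 2.31 log2 units (limma adjusted p = 0.0194). The calls rest on few arrays. Leaving out any 1 emN1 or anN1 array left only 1 emN1 and anN1 pair within a set to give the difference, so such fits cannot tell whether a call holds. Their differences ran from 1.81 to 2.27 and from 1.82 to 2.64 for Hoxd8, and from 3.54 to 4.44 for Hoxd9. Without the intensity trend limma called no probe set in any of the 4 comparisons, those on genes named further on included. With the array set left out of the model, the call remained for 1 of the 3, Hoxd9.

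Between anN1 and wild-type no Hox probe set passed, Hoxd8 and Hoxd9 included. The anN1 minus wild-type log2 differences were -1.82 (SE 0.27) and -1.74 (SE 0.25) for Hoxd8 and -3.41 (SE 0.51) for Hoxd9, with limma adjusted p-values of 0.177, 0.148 and 0.176. In that comparison limma called 20 probe sets on the whole array (0.074%); 4 Hox probe sets had an unadjusted p under 0.05, where 3.64% of all did. Without wild-type replicate 1, or without wild-type replicate 2, 3 Hox probe sets were called, where 0.64% and 0.296% of all tested probe sets were. They were both Hoxd8 probe sets in each case, with Hoxd9 in the first and Hoxa9 in the second. In the second array set alone, the anN1 array minus the mean of the 2 wild-type arrays was -1.70, -1.53 and -3.64 log2 units. With signals raised to the background limit the fitted Hoxd9 difference was -1.60. Between emN1 and wild-type the Hoxd8 differences were 0.23 (95% interval -0.42 to 0.87) and 0.49 (-0.09 to 1.08) and the Hoxd9 difference was 0.57 (-0.62 to 1.76), and none passed. These comparisons share arrays, so they are not independent of each other.

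**Figure D2:**
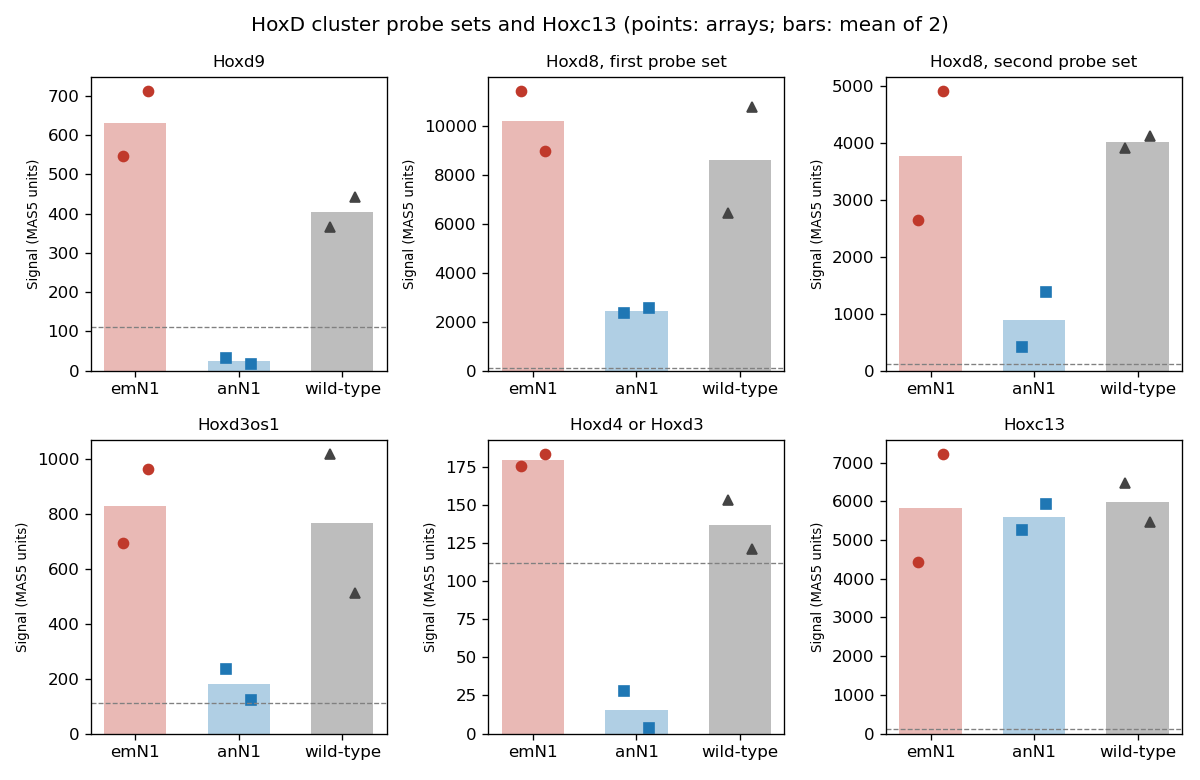
Signal by array (points; replicate 1 to the left) and mean of 2 arrays (bars) for Hoxd9, both Hoxd8 probe sets, Hoxd3os1, a probe set shared by Hoxd4 and Hoxd3, and Hoxc13, on linear axes from 0 in MAS5 units; the dashed line is the background limit of 112. In the first 5 panels the anN1 points lie lowest (30.8 and 15.9 for Hoxd9), while for Hoxc13 all groups overlap.

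Against anN1 and wild-type pooled as controls, Hoxd8 and Hoxd9 did not pass. Of the 27 tested Hox probe sets, 0 were called between emN1 and the 4 controls by limma, against 3.77% of all tested probe sets, and 7 had an unadjusted p under 0.05, against 16.6%. The Hoxd8 differences from the pooled controls were 1.32 (SE 0.54) and 1.54 (SE 0.52) and the Hoxd9 difference was 2.62 (SE 1.02), with adjusted p-values of 0.274, 0.173 and 0.242. Hoxd9 was higher in both emN1 arrays than in every control, but Hoxd8 was not. Without wild-type replicate 2, 1 Hox probe set was called, the first of Hoxd8, where 4.04% of all tested probe sets were. These differences moved with single arrays: the first Hoxd8 probe set gave 0.68 without either first replicate of emN1 or anN1 and 2.27 without emN1 replicate 2, and the second gave 0.80 and 2.64. With signals raised to the background limit the Hoxd9 difference was 1.67.

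Other features of the HoxD cluster were read for their position and are not members. Hoxd3os1, the transcript annotated on the strand opposite Hoxd3, gave 694 and 965 units in emN1, 237 and 121 in anN1, and 1019 and 514 in wild-type. Its anN1 signals lay under all others, but its emN1 minus anN1 difference of 2.15 (SE 0.46) did not pass (limma adjusted p = 0.0747). A second Hoxd3os1 probe set was too dim to be tested and did not separate the groups, at 69.7 and 128 in emN1, 143 and 95.2 in anN1, and 16.9 and 134 in wild-type. Of the 2 probe sets shared by Hoxd4 and Hoxd3, one gave 175 and 183 in emN1, 27.8 and 3.59 in anN1, and 153 and 121 in wild-type. Only the anN1 signals of that probe set were under the background limit, and it was too dim to be tested. The other shared probe set did not separate the groups, with anN1 at 61.9 and 49.4 and a lowest other signal of 49.6.

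The remaining HoxD members were near or under background on most arrays. Hoxd1, Hoxd3, Hoxd10 and Hoxd11, and 1 of the 2 Hoxd13 probe sets, were under 112 on all 6 arrays, with highest signals of 71.8, 100.4, 62.2, 75.2 and 41.1. Hoxd12 was above the limit on 3 arrays (116 in anN1, 129 and 118 in wild-type) and at 10.1 and 6.66 in emN1. The other Hoxd13 probe set was above it on 1 array, an emN1 array at 206. None of these was tested. Outside the cluster, Mtx2, a mitochondrial gene beside HoxD, differed by -0.26 (SE 0.14) between anN1 and wild-type and did not pass.

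Markers of other cell types were read beside the HoxD result. The dermal fibroblast list (8 of 8 genes) summed to between 97299 and 116655 units in emN1, 63029 and 68544 in anN1, and 62184 and 82317 in wild-type. Its sum in anN1 lay within the range of wild-type, but a large part of it came from 1 gene. That gene, Dcn, gave 36993 and 33931 in anN1 and 30847 and 42673 in wild-type. Over the 8 fibroblast genes the median anN1 minus wild-type log2 difference was -0.20, and 0 were called, where 0.074% of all tested probe sets were. Of the 8, 2 were lower in both anN1 arrays than in all others, as were 4.11% of all tested probe sets. Basal keratinocyte markers (6 of 6) summed to 132084 and 146832 in emN1, 74124 and 90633 in anN1 and 88024 and 85288 in wild-type. Melanocyte markers (7 of 7) summed to 111431 and 93171 in emN1, 299053 and 255099 in anN1, and 206263 and 223430 in wild-type, and 5 of the 7 were higher in both anN1 arrays than in all others. Among all tested probe sets 5.06% had that property. Against anN1, 6 of the 7 were called lower in emN1, where 0.662% of all tested probe sets were. In the same comparison 4 of 8 fibroblast, 3 of 6 basal and 2 of 4 tested immune markers were called higher, where 1.35% of all were. Immune markers (5 of 5 measured, 4 bright enough to test) summed to between 3845 and 3970 in emN1, 930 and 1151 in anN1, and 956 and 1063 in wild-type, with Cd3e under the background limit on all arrays. Dermal papilla markers (7 of 7) summed to between 10623 and 12755 in emN1, 12017 and 13304 in anN1, and 10579 and 10813 in wild-type. These sums hide members that moved in opposite directions. Against the controls, Crabp1 (log2 -1.97) and Rspo3 (-1.30) were called lower in emN1 and Vcan (0.77) higher. The other 3 of the 6 tested were not called, and 3.77% of all tested probe sets were. Sums of skeletal muscle markers (6 of 6) overlapped between the groups, from 1255 to 2050, with Tnnt3 under the limit throughout. Endothelial markers (4 of 4) summed to between 474 and 767 in emN1, 732 and 1005 in anN1, and 704 and 856 in wild-type, with Pecam1 under the limit throughout. The adipocyte list (3 of 4, Pparg under the limit throughout) summed to between 9960 and 15335 in emN1, 12518 and 18674 in anN1, and 8502 and 9027 in wild-type bulbs. The part of these cell types in the HoxD result was not tested.

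Hoxc13, the Hox gene known for hair shaft differentiation, did not separate the groups. The gene lies at chr15:102921131-102928814 on GRCm38.p6. Its probe set gave 4426 and 7217 units in emN1, 5262 and 5942 in anN1, and 6466 and 5475 in wild-type bulbs. The emN1 arrays held both the lowest and the highest of the 6 signals. The log2 difference was 0.07 (SE 0.15; 95% interval -0.27 to 0.40) between emN1 and controls, 0.02 (-0.38 to 0.41) between emN1 and anN1, 0.15 (-0.30 to 0.59) between emN1 and wild-type, and 0.13 (-0.31 to 0.57) between anN1 and wild-type. A change of a size within these intervals is not excluded. The intervals are no limit of detection, and with 2 arrays a group larger changes could also go uncalled. Without emN1 replicate 2 the difference from the controls was -0.25.

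Of 6 genes known to be regulated by Hoxc13, 4 were measured, and 1 rose against the pooled controls, 1 against anN1 and 2 against wild-type, with none called lower. Among all tested probe sets 3.77%, 2.02% and 2.16% were called in either direction in these comparisons. Krt32, a hair cuticle keratin, gave 33055 and 31148 units in emN1, 17466 and 15389 in anN1, and 6675 and 4021 in wild-type, with no overlap between groups. It rose in emN1 by 2.56 log2 units (SE 0.24) against wild-type (limma adjusted p = 0.00456). The anN1 minus wild-type difference of 1.59 (SE 0.24) did not pass, except without either wild-type array. Padi3, which modifies proteins of the hair shaft and inner root sheath, gave 23282 and 28750 in emN1, 12354 and 16718 in anN1, and 11485 and 9334 in wild-type. It rose by 1.505 (SE 0.14) against wild-type and by 0.85 (SE 0.13) against anN1 (limma adjusted p = 0.00470 and 0.0240). Both the Krt32 and Padi3 calls against wild-type rest on few arrays, and so does that of Padi3 against anN1. With each array left out in turn, the differences against wild-type ran from 2.20 to 2.92 for Krt32 and from 1.36 to 1.65 for Padi3. The Padi3 difference against anN1 ran from 0.78 to 0.91. Leaving out any 1 emN1 or anN1 array left a group with 1 array. Such fits give sizes only and cannot tell whether the Krt32 and Padi3 calls against wild-type and anN1 hold. The Padi3 call against the pooled controls (log2 1.11, SE 0.21) was lost without either emN1 array, anN1 replicate 1 or wild-type replicate 1. With the array set left out of the model all 3 Padi3 calls were lost (adjusted p = 0.0795 against controls, 0.290 against anN1 and 0.0577 against wild-type) and the Krt32 call was not. Foxn1, a transcription factor of the hair matrix, and Krt35, a cortex keratin, did not pass in any comparison, with differences of 0.36 and -0.67 between emN1 and wild-type.

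In HoxA, 8 of 16 probe sets were tested and none passed in any of the 4 comparisons. The 8 untested ones, for Hoxa3, Hoxa4, Hoxa9, Hoxa10, Hoxa11 and Hoxa13, were each under the background limit on at least 3 arrays. Hoxa5, a factor of middle trunk and lung identity, gave 1314 and 942 in emN1, 2513 and 1254 in anN1, and 1470 and 1755 in wild-type with its brighter probe set. Only 1 emN1 signal lay under every control, and the difference from the controls was -0.76 (SE 0.19; limma adjusted p = 0.0771), the smallest adjusted p of any Hox probe set in that comparison. The other Hoxa5 probe set differed by -0.32 (SE 0.19). Hoxa9, chosen after its values were seen, had the widest range over the 6 arrays among HoxA probe sets above background on all arrays, at 671 and 3022 in emN1, 1803 and 1105 in anN1, and 118 and 960 in wild-type. Its emN1 minus wild-type difference of 2.35 (SE 1.06) did not pass, and its emN1 minus anN1 difference was -1.40 in the first set and 1.44 in the second.

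In HoxB, 8 of 11 probe sets were tested and none passed, and those of Hoxb7, Hoxb9 and Hoxb13 were too dim. A probe set shared by Hoxb8 and Hoxb7, which is not a member, was above background on all 6 arrays. It gave 563 and 1026 in emN1, 391 and 985 in anN1, and 716 and 854 in wild-type, and did not pass in any comparison. Among the 8 tested members of this cluster, 7 differences from the controls were below 0, with a median of -0.26 and values from -0.73 to 0.29. Without either first replicate of emN1 or anN1, 5 of 8 were below 0 with a median of -0.13, and without emN1 replicate 2 all 8 were, with a median of -0.60. Hoxb2, known from hindbrain and branchial arch patterning, gave 1466 and 1841 in emN1, 3178 and 2187 in anN1, and 2416 and 2156 in wild-type, with both emN1 signals under every control (log2 -0.61, SE 0.20; limma adjusted p = 0.154). Its difference was -0.29 without either first replicate of emN1 or anN1 and -1.11 without emN1 replicate 2. One Hoxb4 probe set and the Hoxb1 probe set also had both emN1 signals lowest. With Hoxb2 they made 3 of 27 tested Hox probe sets, and 9.33% of all tested probe sets had that property. Hoxb3, another hindbrain gene, gave with its brighter probe set 2647 and 2622 in emN1, 3337 and 3022 in anN1, and 3018 and 2395 in wild-type, with wild-type spanning both emN1 signals. Hoxb6, a gene of the trunk, gave 2169 and 1912 in emN1, 2990 and 1872 in anN1, and 1630 and 1703 in wild-type. Its wild-type signals were lowest, and its emN1 minus wild-type difference was 0.07 (SE 0.21).

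In HoxC, 8 of 11 probe sets were tested and none passed. The other 3, 1 for Hoxc4 and 2 for Hoxc5, were too dim. Hoxc8, a thoracic patterning gene picked with its values known, gave 1505 and 1343 in emN1, 1222 and 1136 in anN1, and 1638 and 1654 in wild-type. Like Hoxd8, its paralog, it had both anN1 signals lowest, but the anN1 minus wild-type difference was -0.54 (SE 0.21; 95% interval -1.03 to -0.05; limma adjusted p = 0.999). Both wild-type signals were also highest. The 3 tested Hoxc6 probe sets gave emN1 minus anN1 differences of -0.23, 1.02 and 1.30, of which none passed, and the last had a single anN1 array at 37.5 against 350 in the other.

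**Figure D3:**
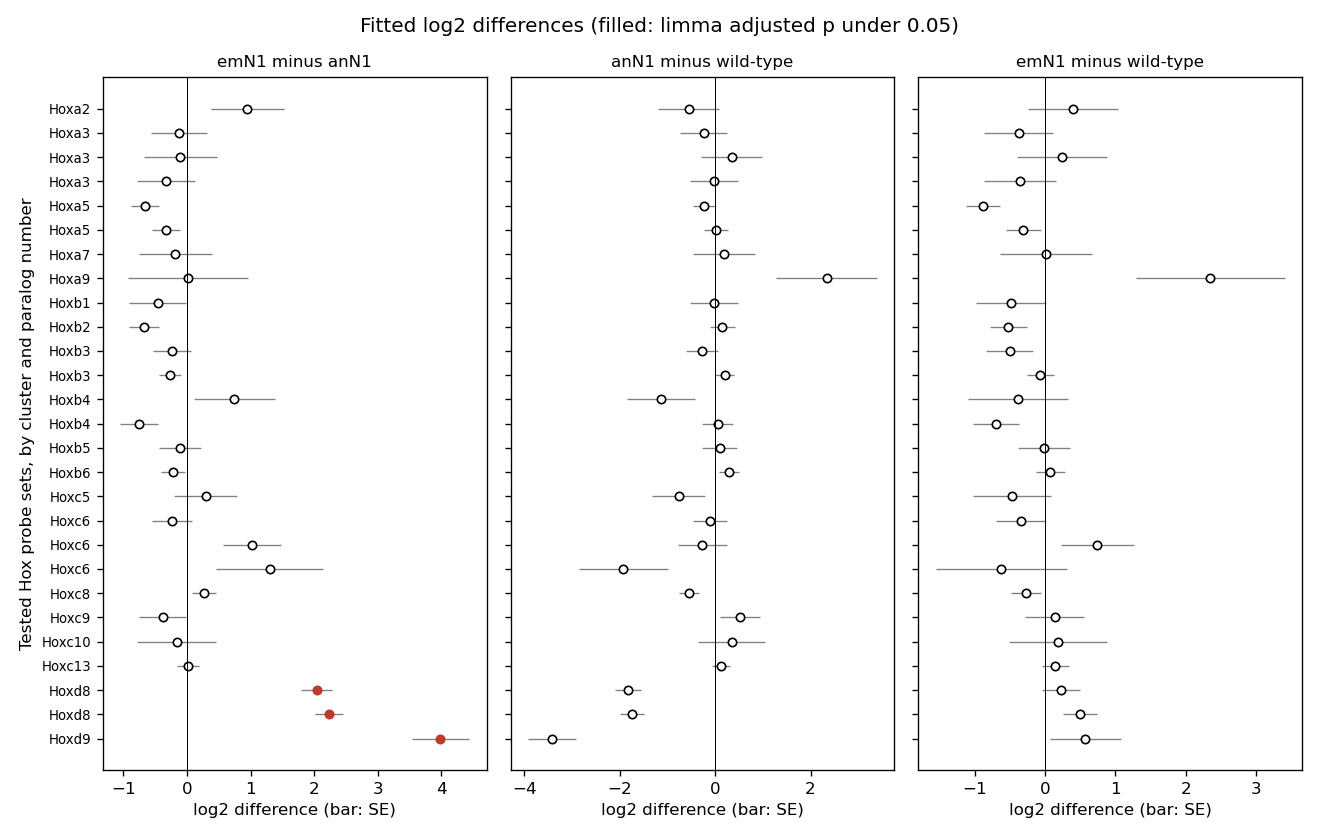
Fitted log2 difference (point) with its SE (bar) for the 27 tested Hox probe sets, ordered by cluster and paralog number, in 3 comparisons; filled points passed limma with a Benjamini-Hochberg adjusted p under 0.05. The 3 filled points are Hoxd8, at 2.04 and 2.23, and Hoxd9, at 3.99, between emN1 and anN1, and the same 3 lie at -1.82, -1.74 and -3.41 between anN1 and wild-type, where none is filled.

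The median difference of the 27 was -0.07 against controls, -0.13 between emN1 and anN1, -0.07 between emN1 and wild-type, and -0.03 between anN1 and wild-type, beside medians of -0.01, -0.02, 0.00 and 0.03 over all 27022. The medians depended on single arrays. Against controls the Hox median was 0.19 without emN1 replicate 1 or anN1 replicate 1 and -0.41 without emN1 replicate 2, and between emN1 and anN1 it was 0.046 without either of the first replicates and -0.41 without either of the second. Between emN1 and wild-type it was 0.11 without emN1 replicate 1 or either anN1 array and -0.51 without emN1 replicate 2, and between anN1 and wild-type it was 0.37 without anN1 replicate 2 and -0.18 without anN1 replicate 1 or either emN1 array. The 27 tested probe sets passed a brightness filter over all arrays and do not stand for the 21 that did not. Between emN1 and wild-type limma called 0 Hox probe sets, against 2.16% of all, and 1, for Hoxa5, had an unadjusted p under 0.05, against 13.2%; without wild-type replicate 2 it called 1, for Hoxa9, against 3.18% of all. Both anN1 signals lay below all others for 4 of the 27 (the 3 of Hoxd8 and Hoxd9, and Hoxc8), against 4.11% of all tested probe sets. They lay above all others for 1, a Hoxb3 probe set (5.06% of all). Both emN1 signals lay above every control for 1, Hoxd9 (9.99%). Both wild-type signals were lowest for 2, Hoxb6 and Hoxc9 (7.58%), and highest for 2, the dimmer Hoxb3 probe set and Hoxc8 (8.77%).

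Among genes that act with Hox factors or on their clusters, each counted by its brightest probe set, none passed. Of 9 Hox cofactors, which bind DNA together with Hox proteins, 7 were tested. By limma 0 passed in any of the 4 comparisons, and at an unadjusted p under 0.05 the only one was Meis1 between anN1 and wild-type (log2 0.82). Pbx3, with the smallest unadjusted p between emN1 and controls, differed there by -0.37. All 14 chromatin regulators of Hox clusters (Polycomb and Trithorax group genes and their partners) were tested and 0 passed by limma, with 2, 2, 2 and 1 at an unadjusted p under 0.05 in the 4 comparisons. Over all tested probe sets the shares at that level were 16.6%, 13.4%, 13.2% and 3.64%. Phc1, a Polycomb subunit, gave 1571 and 1439 in emN1 and between 2159 and 3006 in the controls (log2 -0.71; limma adjusted p = 0.0828). Suz12, another, differed by -0.35 from the controls with its brightest probe set. A second Suz12 probe set, which did not stand for the gene in the count, fell by 0.65 (limma adjusted p = 0.0435), and that call was lost without any 1 of the 6 arrays.

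Other transcription factors that mark skin and limb position were mostly dim, with 5 of 12 tested. Tbx18, a T-box factor of mesenchyme, rose in emN1 and was the only one to pass. It passed against the pooled controls, where 3.77% of all tested probe sets were called. It gave 1381 and 1615 in emN1, 593 and 797 in anN1, and 716 and 615 in wild-type, a difference of 1.18 (SE 0.20) from the controls (limma adjusted p = 0.0171), and the call was lost without either emN1 array, without anN1 replicate 1 and with the array set left out of the model (adjusted p = 0.0673). The fibroblast list was also higher in emN1, as given above, and its part in the Tbx18 result was not tested. Zic1, a zinc-finger factor of the dorsal trunk, was chosen with its values known, and gave 1211 and 1603 in emN1, 694 and 884 in anN1, and 2705 and 1507 in wild-type. Both anN1 signals were lowest, but neither the emN1 minus anN1 difference of 0.82 nor the anN1 minus wild-type difference of -1.16 passed (limma adjusted p = 0.280 and 0.991). A second tested Zic1 probe set gave 1511 and 1115 in emN1, 697 and 827 in anN1, and 2029 and 1773 in wild-type. Its anN1 signals were also lowest, and its differences of 0.76 and -1.35 did not pass (limma adjusted p = 0.215 and 0.467). Tbx4, Tbx5, Tbx3, Pitx1, En1, Lmx1b and Alx4, which pattern limbs and the body wall, were too dim to be tested.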

How the data were processed

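The authors deposited MAS5 intensity values for 45101 probe sets on each of 6 arrays (MAS5 per the submitters' processing notes; the version and parameters were not stated there). Each array had the same trimmed mean, 1500, as deposited. A pseudocount of 17.8 (the 10th percentile of all values) was added before log2. The 27022 brightest non-control probe sets by mean over all arrays (the upper 60%) were tested with limma 3.58.1 in R 4.3.3 (lmFit, eBayes with an intensity trend), with group and array set as terms, and p-values were adjusted by Benjamini-Hochberg over all of them. The emN1 arrays were compared with the pooled controls in a 2-group model, and the 3 pairs of groups in a 3-group model with 2 residual degrees of freedom. The array set comes from the submitters' design text. Same-numbered emN1 and anN1 arrays deviated together (r = 0.38 over 27022 probe sets), those of emN1 and wild-type and of anN1 and wild-type did not (r = -0.19 and -0.02).

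Symbols came from the platform annotation: 34958 probe sets had 1 symbol, 932 several and 9211 none. Hox probe sets matched the RefSeq gene table (GRCm38.p6) by gene identifier, and genes outside the Hox set were represented by their brightest probe set. Genes named by rule were Hoxc13, Hoxd8, Hoxd9, Hoxb3, Hoxa5, Hoxb2 and Hoxb6, with others named as chosen after their values were seen. The rule took Hoxc13, each Hox gene called in any comparison, the brightest of each cluster and the 6 brightest by mean signal. The members and gene lists were chosen with earlier results of these data known. The limma script was tested on simulated data.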

Additional observations from a re-analysis of the deposited data

Results flagged for a closer look

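Of 4 control probe sets on the array that match the cre recombinase of phage P1, and that no comparison used, 2 were above the background limit of 112 on all emN1 and anN1 arrays. The lowest of the 4 emN1 and anN1 signals was 395 on AFFX-CreX-3_at, where wild-type gave 62.4 and 79.0. The lowest was 349 on AFFX-r2-P1-cre-3_at, where wild-type gave 29.2 and 4.29. The probe set AFFX-r2-P1-cre-5_at, ran from 93.7 to 205 in emN1 and anN1 and was under the limit on 1 of those arrays, with at most 33.4 in wild-type. AFFX-CreX-5_at was under the limit on all 6 arrays, at most 100.8 in emN1 and anN1 and 4.25 in wild-type.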

How the results depend on the processing

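The emN1 minus anN1 differences of Hoxd8 and Hoxd9, and their anN1 minus wild-type differences, kept their direction under every alternative that gave a value; Hoxd9 was left untested by the stricter filter (upper 40%). The count of 3 Hox probe sets called between emN1 and anN1 was 0 without the intensity trend and 1 without the replicate block (array set left out). Leaving out each array in turn gave 0 to 3 for that comparison, 0 to 1 against controls, 0 to 1 between emN1 and wild-type, and 0 to 3 between anN1 and wild-type. Over all tested probe sets, the counts of 1020 (against controls), 545 (emN1 minus anN1), 584 (emN1 minus wild-type) and 20 (anN1 minus wild-type) were all 0 without the trend, 286, 42, 215 and 14 without the block, and 1 to 1092, 0 to 1269, 0 to 1375 and 0 to 173 when each array was left out. Without the block the sign turned for Hoxc13 (-0.029 against controls, -0.074 for emN1 minus wild-type, -0.089 for anN1 minus wild-type), Hoxb6 against controls (0.036), the second Hoxd8 probe set for emN1 minus wild-type (-0.16) and Hoxa5 for anN1 minus wild-type (0.14). With a gene's probe sets averaged, Hoxb3 gave -0.037 for anN1 minus wild-type. Leaving out each array, the ranges that crossed 0 were as follows. Hoxc13 ran from -0.25 to 0.28 against controls, against anN1 and against wild-type, and from -0.0019 to 0.53 for anN1 minus wild-type. Hoxb6 ran from -0.46 to 0.14 against controls, -0.46 to 0.030 for emN1 minus anN1 and -0.29 to 0.20 for emN1 minus wild-type. For emN1 minus wild-type the first Hoxd8 probe set ran from -0.14 to 0.60, Hoxd9 from -0.10 to 0.80 and Hoxb3 from -0.23 to 0.10. For anN1 minus wild-type Hoxa5 ran from -0.35 to 0.17 and Hoxb2 from -0.061 to 0.80. Leaving out either array of the first set left the other to the array-set term, so both fits gave the same differences. For emN1 minus anN1, leaving out any emN1 or anN1 array left a single pair within a set. The counts of those fits therefore do not bear on particular calls. Beyond this and the smaller number of arrays, the cause of these changes was not tested. The precision is limited by 2 arrays a group, and signals under 112 give only an upper bound.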

Other observations

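Each tested probe set was also placed by the gap between its highest anN1 signal and its lowest signal in the other groups, on the log2 scale used. The measure was chosen after the values were seen and is a description with no test. Of the 27022 tested probe sets, 23281 were above the background limit on all 6 arrays, and 3 of these (0.0129%) had anN1 lower by a gap of 1 log2 unit or more. The first Hoxd8 probe set had the widest of those gaps, at 1.33. An unnamed probe set followed with 1.31, then Hoxd3os1 with 1.06, and the second Hoxd8 probe set stood at place 5 with 0.93. Hoxd9 has no place in this order because both of its anN1 signals were under the limit. With those raised to the limit, its gap was at least 1.56.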
